A study of Aspergillus niger with 6 samples.

Results

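A set of 221 genes of the filamentous fungus Aspergillus niger reached their highest transcript level at 36 h of a citrate fermentation. They were selected, among the 9953 genes listed over 5 times from 6 to 48 h, on the deposited FPKM (fragments scaled by the length of the transcript and by the mapped fragments of the library). The highest of the 5 values had to be at 36 h, to be at least 10 FPKM, and to lie at least 4-fold above the lowest, on the scale of log2(FPKM + 1). Of the 9953 genes, 2228 had their highest value at 36 h, 1747 of these were at 10 FPKM or more there, and 221 also had the 4-fold range. Because the genes were chosen by their FPKM in these 5 libraries, the values at these times are given as a description and are not tested.

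The strain was H915-1 in all 6 libraries, and each came from pellets of mycelium. The groups were 48 h at an air supply of 1.5 vvm (air flow in culture volumes each minute), and 6, 12, 24, 36 and 48 h at 3 vvm. Each group held 1 library, so no difference between 2 libraries has a replicate check and no p-value is given for one. Recovered totals lay between 5062817 fragments at 6 h and 6708034 at 1.5 vvm. In bulk RNA, fewer cells of one kind and less RNA per cell cannot be told apart. The files name genes by model identifiers, 0 of which matched the 14404 genes of the RefSeq table for assembly ASM285v2. The genes are therefore given by their place on the authors' contigs, counted from 1, without names or functions.

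Aspergillus niger makes citrate from sugar by glycolysis and the mitochondrial enzyme citrate synthase. It excretes the acid in large amounts when sugar is plentiful, the medium is acidic and the air supply is strong. The industrial process is known to be sensitive to aeration. In Aspergillus species generally, the genes of a secondary metabolite pathway often lie side by side and are switched on together. Such pathways are commonly built around a very long gene for a polyketide synthase or a non-ribosomal peptide synthetase.

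Values over the course are given in order of time, at 6, 12, 24, 36 and 48 h at 3 vvm. The median of the 221 genes was 6.92, 22.1, 25.5, 63.6 and 40.7 FPKM from 6 to 48 h. At 36 h the genes ranged from 10.2 to 5748 FPKM, with quartiles of 26.0 and 141 FPKM. Most of them were low at the start: 191 of the 221 had their lowest value at 6 h, against 11 at 12 h, 18 at 24 h and only 1 at 48 h. At 6 h, 15 genes had 0 fragments and 29 had at most 3, the number that a count of 0 allows. At 36 h, 218 of the 221 stood 2-fold or more above 6 h, as did 17.4% of all genes, and 204 stood 4-fold or more above it. The range over the course was at least 16-fold for 44 genes. The counts at 4-fold and 16-fold, and that of genes lowest at 6 h, describe the members only. The rule already asks for a 4-fold range, and no share of all genes was computed for them.

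Close to the thresholds the membership turned on small differences. The 3 members with the lowest level at 36 h stood at 10.2, 10.2 and 10.8 FPKM, with 1, 123 and 102 fragments. The 3 genes just under the minimum stood at 9.94, 9.92 and 9.62 FPKM with 72, 73 and 51 fragments. The log2 range of the 3 members nearest that threshold was 2.02 in each, and the 3 genes just outside had 1.9994, 1.99 and 1.99.

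Counting error limits how many of these peaks can be placed at 36 h rather than at a neighbouring time. As a description of counting precision, and not a test, since 36 h is the highest by choice, exact 95% binomial intervals (Clopper-Pearson) were set on the ratio of fragments relative to depth. The interval lay above 1 for 116 of 221 genes (52.5%), so that for the others counting error alone could reorder 36 h and the second-highest time. In 15 genes the fragments per depth were slightly lower at 36 h than at that time, although the FPKM was higher. The second-highest time was 48 h for 145 genes, 24 h for 42, 12 h for 30 and 6 h for 4. At 36 h 19 genes had under 20 fragments and 8 had only 1 or 2. These intervals cover counting error only, since the fragments carry no molecular identifiers.

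**Figure D1:**
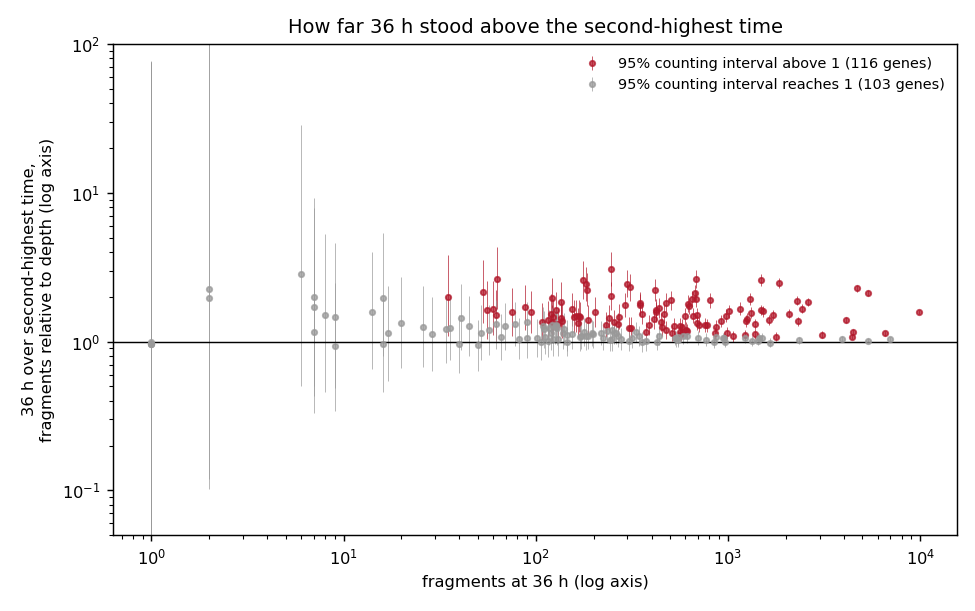
Fragments at 36 h (horizontal log axis) against the ratio of 36 h to the second-highest time, in fragments relative to depth (vertical log axis, exact 95% counting intervals cut off at the panel edge), for the genes highest at 36 h with at least 1 fragment at the second-highest time. The 116 red genes have intervals above 1, and genes with few fragments have intervals that span several-fold on both sides of 1.

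The courses differed in how long the high level lasted. The 221 genes were sorted by whether 36 h was at least 2-fold above 24 h and 48 h. Both held for 29 genes, called sharp here. In 20 of these 29 the counting interval of 36 h over the second-highest time lay above 1. The 12 h value was not used, and the sharp gene on unitig_4 from 84763 to 87058 stood at 44.2 FPKM at both 12 and 36 h. In 70 genes 36 h was at least 2-fold above 24 h while 48 h stayed within 2-fold, in 14 genes the reverse held, and in 108 genes (48.9%) both neighbouring times were within 2-fold. Over all members, 99 genes stood 2-fold or more above 24 h at 36 h, as did 5.62% of all genes, and 43 stood as far below 36 h at 48 h, as did 2.02% of all genes. At 48 h, 121 genes were within 1.5-fold of their value at 36 h, a count for which no share of all genes was computed.

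The sharp genes had a median of 6.09, 11.5, 6.93, 54.6 and 17.5 FPKM from 6 to 48 h. The genes that shared their high level with 48 h had a median of 6.24, 16.3, 12.6, 51.7 and 39.2 FPKM from 6 to 48 h. For the 14 genes that shared it with 24 h the medians were 5.44, 10.8, 22.2, 30.5 and 12.4 FPKM from 6 to 48 h. The medians of the broad genes rose at each time up to 36 h, while single genes differed. These medians were 8.10, 29.9, 54.6, 84.4 and 58.0 FPKM from 6 to 48 h. These shapes restate the sorting. The 24 minus 12 h difference, which the sorting did not use directly, had a median of -0.11 on the log2 scale in the genes shared with 48 h, with quartiles of -1.14 and 0.36, so that not all of them dipped at 24 h.

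**Figure D2:**
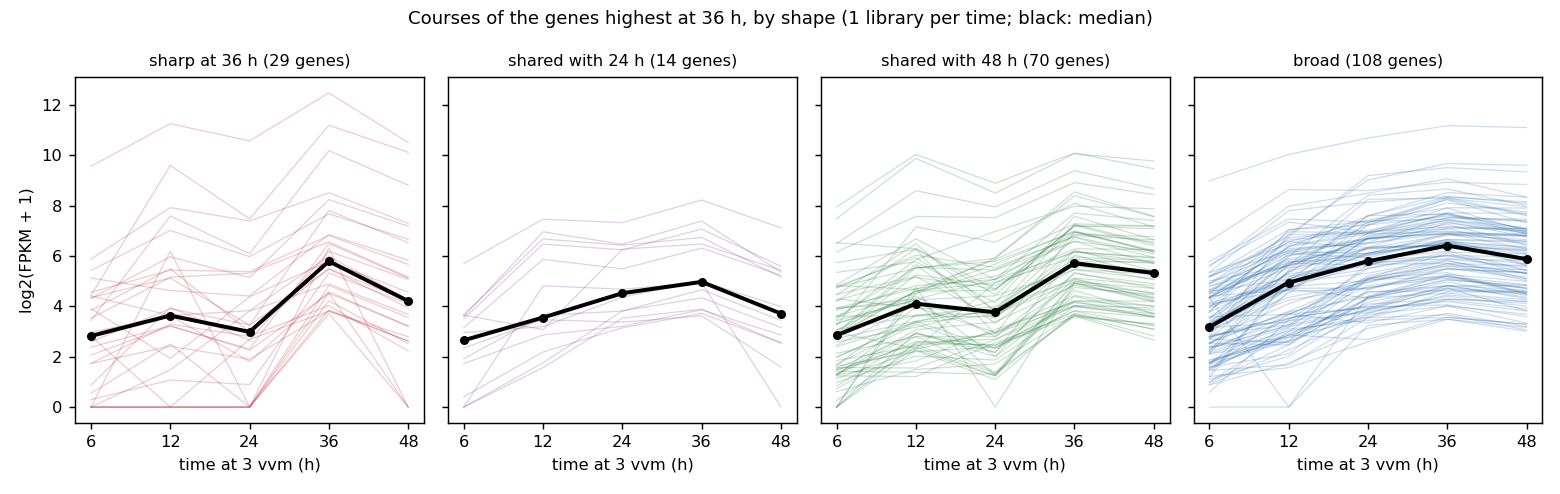
Level as log2(FPKM + 1) at 6, 12, 24, 36 and 48 h at 3 vvm, with 1 thin line per gene and the median in black, in 4 panels by shape. The sharp panel (29 genes) and the panel shared with 48 h (70 genes) have a median that is lower at 24 than at 12 h, while single genes differ, and that of the broad panel (108 genes) is higher.

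The most abundant member was a gene of 517 bp on contig unitig_4 from 264162 to 264678. It stood at 759, 2457, 1529, 5748 and 1463 FPKM from 6 to 48 h. Its 4666 fragments at 36 h were 2.29-fold above 12 h, its second-highest time, relative to depth (2.17 to 2.41). It was a sharp gene, with alternating low and high values at successive times. The next was on unitig_2 from 645804 to 646558, at 20.7, 778, 177, 2354 and 1116 FPKM from 6 to 48 h. This gene was also sharp, and at 36 h its fragments were 114-fold above those at 6 h relative to depth (84.8 to 157).

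The other 3 of the 5 most abundant members lay on contig 1. The gene from 2271448 to 2272353 was broad, at 508, 1052, 1653, 2323 and 2212 FPKM from 6 to 48 h. Its 36 h fragments differed from those at 48 h by less than counting error, with a ratio of 1.01 (0.978 to 1.05). The gene from 524742 to 525277 was sharp, at 9.87, 193, 67.6, 1172 and 450.0 FPKM from 6 to 48 h. The gene from 1361751 to 1363621 had 2 highs of nearly equal size, at 246, 1052, 476, 1096 and 709.9 FPKM from 6 to 48 h. Its 36 h value was 1.03-fold above 12 h (0.9998 to 1.07), so these 2 times could not be ordered at this depth.

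The largest range over the course, a log2 range of 8.40, was that of a span of only 195 bp on unitig_4 from 67142 to 67336, and it rested on few fragments. This gene was listed at 0, 22.1, 60.0, 336 and 188 FPKM from 6 to 48 h, and had 0, 1, 3, 14 and 10 fragments. Relative to depth, 36 h was at least 4.40-fold higher than 6 h, with 6 h set to 3 fragments. A firmer wide range was that of the gene on unitig_4 from 1256188 to 1257372, at 5.94, 116, 520.1, 817 and 782 FPKM from 6 to 48 h. Its 3910 fragments at 36 h were 136-fold above those at 6 h (93.7 to 207). On unitig_3, the gene from 3165339 to 3167836 had 3.40, 42.8, 193, 368 and 324 FPKM from 6 to 48 h, and was 108-fold above 6 h (78.9 to 152). Both of these last genes climbed at each time and were nearly as high at 48 h.

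Of the 5 genes with the greatest excess of 36 h over both neighbouring times, 3 had only 1 or 2 fragments there. These were on unitig_23 from 10642 to 10878, on unitig_6 from 432083 to 432608 and on contig 1 from 3930655 to 3932136. The last 2 had 2 fragments at 36 h, neither had a fragment at another time at 3 vvm, and neither was listed with the 1.5 vvm library. The other two were the most abundant member and the gene on unitig_2 from 828118 to 829263. That gene had 20.3, 11.5, 13.2, 62.7 and 18.3 FPKM from 6 to 48 h. With 246 fragments at 36 h, it was 3.05-fold above 6 h, its second-highest time (2.35 to 4.0), and thus a single high at 36 h over an otherwise low course.

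Many members were already higher at 12 h. At 12 h, 144 members stood 2-fold or more above 6 h, as did 7.66% of all genes. At 24 h, 63 members stood 2-fold or more above 12 h (5.42% of all genes), and 31 as far below it (4.24% of all genes). Since 36 h is the highest by choice, each of these 31 genes was necessarily also at least 2-fold below 36 h at 24 h. Their median was 13.3, 35.6, 6.43, 65.0 and 32.4 FPKM from 6 to 48 h, so that the median at 24 h was the lowest of the 5. Only 18 of all 221 members were lowest at 24 h, so this did not hold for each of the 31. Some rested on single fragments, such as the gene on unitig_23 from 10642 to 10878, with 0, 1, 0, 1 and 0 fragments from 6 to 48 h.

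A gene with this double high lay on unitig_1 from 2507299 to 2508403. It was at 39.9, 53.6, 16.7, 191 and 99.3 FPKM from 6 to 48 h, with 682 fragments at 36 h. The gene on contig 1 from 2003272 to 2004683 was likewise lower at 24 h than at 12 and 36 h, at a higher level, with 179, 944, 362, 1074 and 878 FPKM from 6 to 48 h. Both were picked after their values were seen.

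By Pearson correlation of log2(FPKM + 1) over the 5 times, the gene whose course was most like the median of the members was not itself a member. It lay on contig 1 from 2141189 to 2142796 (r = 0.999 over 5 times) and stood at 17.9, 24.6, 26.2, 34.4 and 29.7 FPKM from 6 to 48 h. Its range was too small for the 4-fold rule.

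The position and span of the genes were not used in choosing them. The members lay on all 8 long contigs, apart from 1 on the short contig unitig_23. The share of listed genes that were members was 2.22% in all. Among the 8 long contigs it was highest on unitig_4 with 37 of 1075 genes (3.44%, 95% interval 2.43 to 4.71) and lowest on unitig_2 with 21 of 1373 (1.53%, 0.949 to 2.33). Within 100 kb of the ends of long contigs 14 of 437 genes were members (3.20%, 1.76 to 5.32), against 206 of 9497 elsewhere on them (2.17%, 1.89 to 2.48). Members often lay side by side, so that these intervals understate the error.

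The members had shorter spans than other genes of the same minimum level. Their median span was 1238 bp, against 1550 bp for the 6452 other genes of at least 10 FPKM at 36 h. Spans under 600 bp made up 14.0% of the members and 5.47% of these other genes. Such spans were as frequent among the genes highest at 24 h (13.2% of 114) and at 48 h (13.2% of 318) by the same rule. Short transcripts pass 10 FPKM with few fragments, and their part in the difference was not tested. At the other end, 8 members had spans of at least 5 kb, or 3.62%, against 3.04% of the other genes.

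Of the 221 genes, 52 (23.5%) had another member as the listed gene directly before or after them. This counts 2 positions per gene, whereas the 2.22% of all listed genes that were members is a share for 1 position. The share next to another of their own group was 24.6% for the genes highest at 24 h and 23.9% for those highest at 48 h, close to that of the members. These 2 groups made up 1.15% and 3.20% of all listed genes, so the 3 shares do not stand for equal closeness relative to group size. The genes next to a member without being one were highest at 36 h in 28.3% of 375 cases, against 20.6% of all 9732 non-members. There were 15 runs of 2, 6 runs of 3 and 1 run of 4 consecutive members. The 7 runs of at least 3 genes held 22 genes, a number that depended on the thresholds: with at least 20 FPKM at 36 h, or with a pseudocount of 5 FPKM, 4 runs with 12 genes were left. Of the 28 genes beside these runs, 2 on each side, 3 were highest at 36 h.

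The run on contig 1 from 4043416 to 4057163 was almost silent at first. It began with a long span of 6465 bp, evm.model.1.1139, from 4043416 to 4049880. This gene was at 0.658, 4.60, 1.53, 31.3 and 19.7 FPKM from 6 to 48 h. The second gene was at 0, 3.87, 1.36, 29.9 and 17.7 FPKM from 6 to 48 h, and the third at 1.19, 3.72, 1.13, 12.3 and 7.53 FPKM. All 3 were at least 2-fold lower at 24 than at 12 h, in the last 2 on few fragments. Their fragments were 143, 11 and 22 at 12 h, 49, 4 and 7 at 24 h, and 1008, 88 and 75 at 36 h. The gene before the run was at 0.657 FPKM at 36 h, and the gene after it was at 8.98 FPKM at 36 h after 33.8 at 24 h.

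The run of 4 genes on unitig_5 from 1269919 to 1289557 held the longest span of all members, 11394 bp from 1275855 to 1287248. That gene was at 0.534, 1.82, 2.28, 11.7 and 6.06 FPKM from 6 to 48 h, with 651 fragments at 36 h. The first gene was at 0.783, 6.03, 1.60, 11.4 and 8.67 FPKM from 6 to 48 h. The second had the widest range of the run, at 0.206, 4.24, 1.37, 23.9 and 12.2 FPKM from 6 to 48 h. The last gene differed from the others in level and course, at 19.3, 65.0, 78.2, 84.5 and 73.9 FPKM from 6 to 48 h. In this run the first 2 genes were at least 2-fold lower at 24 than at 12 h and the others were not.

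On unitig_3 the 3 genes from 4040629 to 4044675 also dipped at 24 h. Their median was 21.3, 60.6, 13.3, 148 and 84.2 FPKM from 6 to 48 h. All 3 were at least 2-fold lower at 24 than at 12 h. The first 2 of these genes are 39 bp apart, and the sources used here do not say if strand was used in counting, so their fragments may not be fully separate. Together, these 3 runs held 8 of the 31 genes with a low at 24 h between 2 highs.

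A second run on unitig_5, from 1505905 to 1513471, had the steepest step from 24 to 36 h of the 7 runs. Its first gene was at 3.19, 8.31, 3.97, 89.6 and 33.9 FPKM from 6 to 48 h. Its second was at 5.01, 14.1, 8.59, 224 and 91.8 FPKM from 6 to 48 h, and had 1850 fragments at 36 h. The third gene was already high at 12 h, at 8.48, 142, 92.9, 273 and 143 FPKM from 6 to 48 h. On the log2 scale the step from 24 to 36 h was 4.19 and 4.55 for the first 2 genes and 1.55 for the third.

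In the remaining 3 runs no gene was at least 2-fold lower at 24 than at 12 h. The 3 genes on contig 1 between 1822703 and 1827007 had a median of 10.5, 57.6, 44.0, 93.8 and 36.8 FPKM from 6 to 48 h. On unitig_1 from 584879 to 596437 the median was 0.989, 7.0, 33.1, 50.7 and 38.1 FPKM from 6 to 48 h. Its first gene spanned 5412 bp. On unitig_4 from 67142 to 73044 the median was 3.00, 22.1, 60.0, 276 and 188 FPKM from 6 to 48 h, and this run includes the 195 bp span with 14 fragments.

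**Figure D3:**
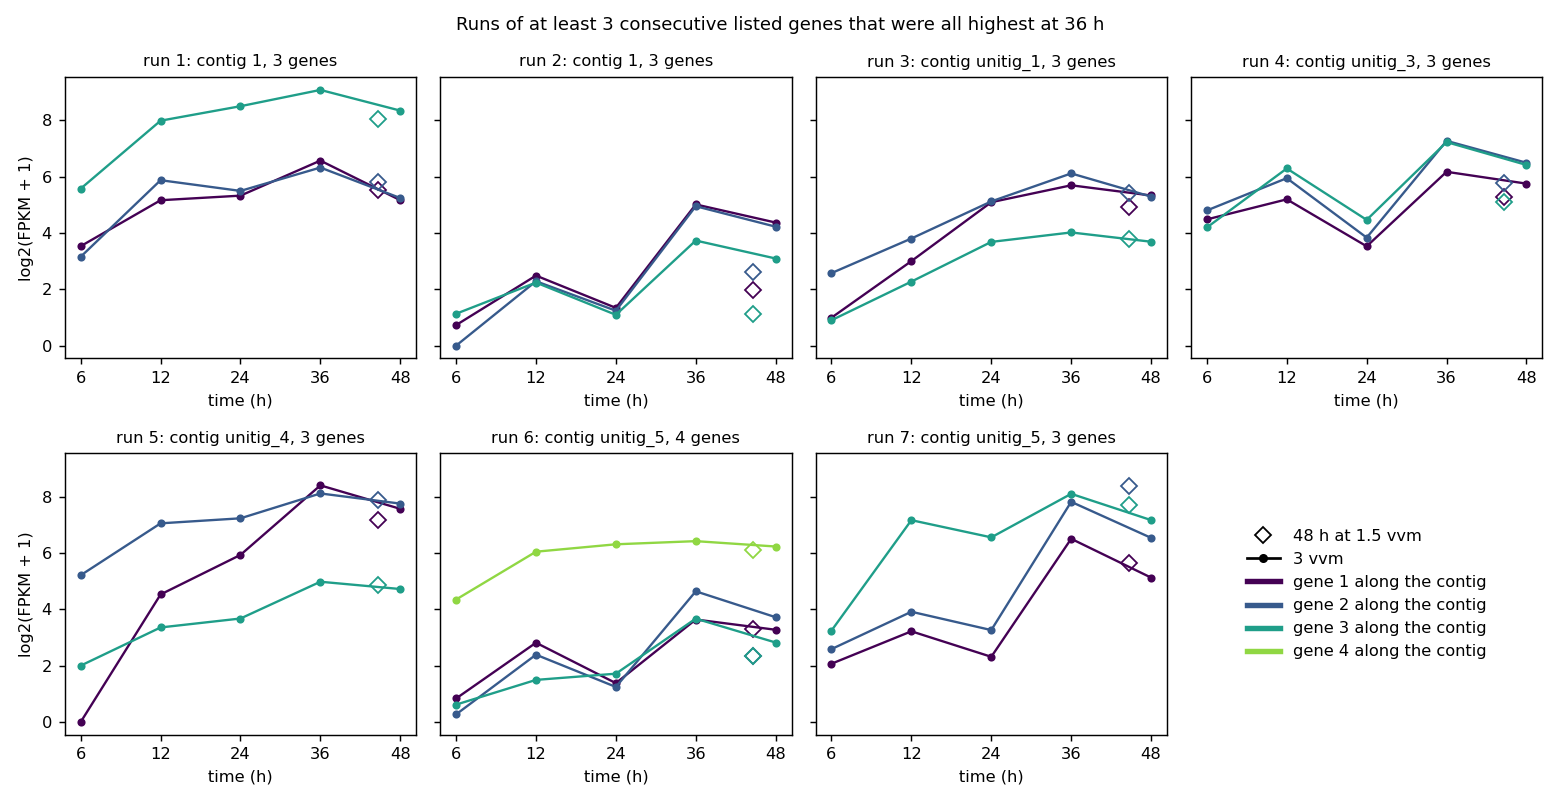
Level as log2(FPKM + 1) of each gene in the 7 runs of at least 3 consecutive members, at 6 to 48 h at 3 vvm (filled points and lines) and at 48 h at 1.5 vvm (open diamonds, set just left of 48 h). The diamonds of run 2 lie well below the 48 h points at 3 vvm, and those of run 7 lie above them.

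The library at 1.5 vvm was not used in choosing the genes, and the comparison asks how the members stood at 48 h with less air. The median over the 219 members listed with it was 42.0 FPKM at 1.5 vvm, against 41.5 FPKM at 48 h and 3 vvm. On the log2(FPKM + 1) scale, their median difference was -0.07 (quartiles -0.50 and 0.43), against 0.28 for all 9787 genes compared and 0.09 for the 6670 genes of at least 10 FPKM at 36 h. At least 2-fold higher at 1.5 vvm were 29 members (13.2%, 95% interval 9.05 to 18.5), where 22.1% of all genes were and 9.16% of those of at least 10 FPKM at 36 h. At least 2-fold lower were 21 members (9.59%, 6.03 to 14.3), where 2.83% of all genes were and 3.42% of those of at least 10 FPKM. The members thus passed 2-fold in both directions, and 169 of the 219 stayed within it.

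The 48 h library at 3 vvm had a part in the choice, since no member may exceed its 36 h value there. It was deposited in another table than the 1.5 vvm library. At 24 h, the library that both tables hold, FPKM was identical at 9930 of 9930 shared loci. Relative to the 36 h library at 3 vvm, which chose the genes, the median log2 difference at 1.5 vvm was -0.59, and 39 of 219 members (17.8%) were higher at 1.5 vvm than at any time at 3 vvm. That held for 39.9% of all genes and for 26.9% of those of at least 10 FPKM at 36 h, and the members' high value at 36 h sets their bar by choice. With both libraries rescaled to a common sum of FPKM, 21 members were higher and 34 lower in place of 29 and 21. Among all genes 17.4% were then higher and 4.77% lower. That rescaling moved the median of all genes to a log2 difference of 0.04 and that of the members to -0.31. Relative to the median of all genes, the members stood 0.36 lower as deposited and 0.35 lower after rescaling, both on the log2 scale. The 442 genes under 0.5 FPKM at all 5 times at 3 vvm stood at a median of 1.57 FPKM at 1.5 vvm. With this level taken off 27 members were higher and 26 lower, as were 15.9% and 5.56% of all genes. The median of the members minus that of all genes was then -0.26. It was -0.27 with a pseudocount of 5 FPKM, and 0.17 against the 24 h library at 3 vvm in place of 48 h. As deposited, the genes of at least 10 FPKM at 36 h, at 0.09, lay nearer to the members than all genes did.

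The genes highest at a neighbouring time stood differently at 1.5 vvm. Of the 114 genes highest at 24 h by the same rule 35 passed 2-fold upwards at 1.5 vvm and 4 downwards, with a median log2 difference of 0.47. Of 317 genes highest at 48 h 19 were higher and 110 lower, with a median of -0.68. The values at 48 h and 3 vvm had a part in choosing all 3 groups, and in the last they are the highest by choice. The order of these medians was therefore partly fixed, and it was not tested.

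The 4 shapes, which use the 48 h value, stood apart at 1.5 vvm. The 14 genes shared with 24 h, which are low at 48 h by definition, stood at a median of 43.7 FPKM at 1.5 vvm, against 12.4 at 3 vvm, with 10 at least 2-fold higher and 0 lower. The 27 sharp genes listed, also low at 48 h by definition, had 31.8 FPKM at 1.5 vvm and 18.3 at 3 vvm, with 7 higher and 0 lower. In both shapes a difference upwards was thus favoured by the sorting. The 70 genes shared with 48 h had 28.4 FPKM at 1.5 vvm and 39.2 at 3 vvm, with 5 higher and 14 lower. The 108 broad genes had 57.3 FPKM at 1.5 vvm and 58.0 at 3 vvm, with 7 higher and 7 lower. Of the 31 genes with a low at 24 h between 2 highs, 3 were higher and 8 lower at 1.5 vvm, with a median log2 difference of -0.48. Of the other 188 members listed, 26 were higher and 13 lower, with a median of -0.03. Each of the 31 was by definition sharp or shared with 48 h, so this contrast partly restates the sorting. Of their 8 lower genes, 5 lay in 3 runs of adjacent members, so they are not separate cases.

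**Figure D4:**
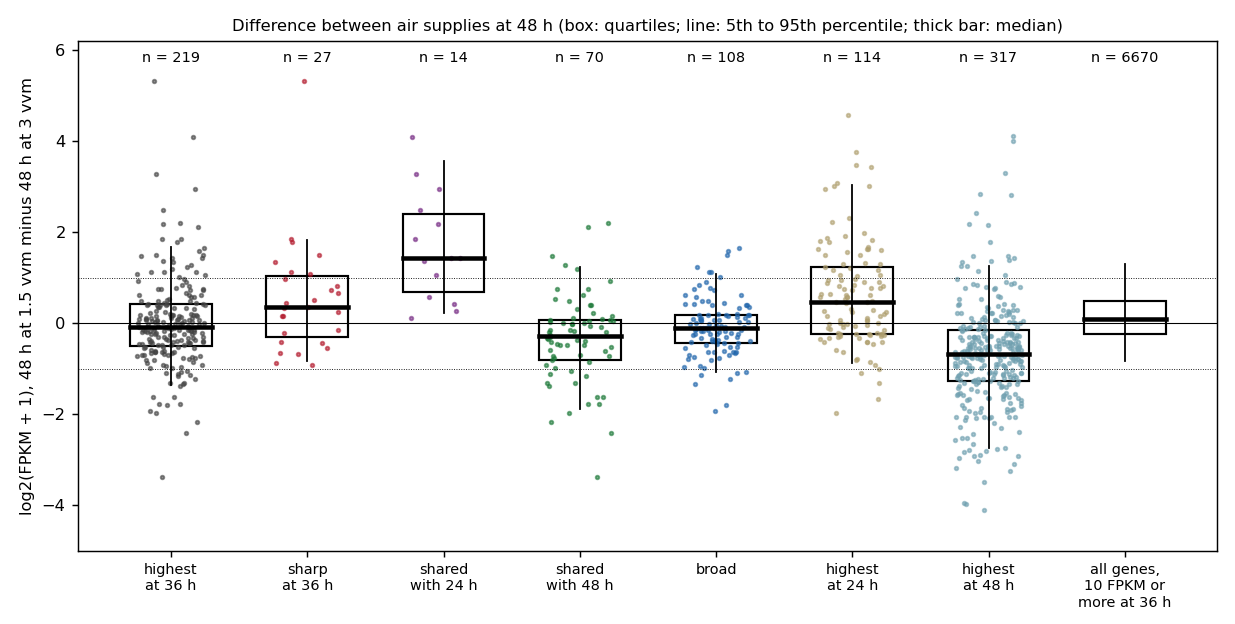
Difference in log2(FPKM + 1) between 48 h at 1.5 vvm and 48 h at 3 vvm for the genes highest at 36 h, their 4 shapes, the genes highest at 24 and 48 h by the same rule, and all genes of at least 10 FPKM at 36 h (points: genes, not drawn for the last group; boxes: quartiles; thick bars: medians; vertical lines: 5th to 95th percentile; dotted lines: 2-fold). The median lies at -0.07 for the 219 members, at 1.44 for the 14 shared with 24 h and at -0.68 for the genes highest at 48 h.

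The largest difference downwards among the members was that of evm.model.unitig_3.926, on unitig_3 from 3196105 to 3197625. It was at 12.1 FPKM at 1.5 vvm and 135 at 3 vvm at 48 h, with 102 and 1102 fragments, or 11.9-fold lower relative to depth (9.69 to 14.7). Its course at 3 vvm had been 17.8, 34.6, 24.7 and 146 FPKM from 6 to 36 h, so that the level at 1.5 vvm was below each of the 5 times. The gene on unitig_3 from 3165339 to 3167836, also a member, was at 92.6 FPKM at 1.5 vvm and 324 at 3 vvm, 3.56-fold lower (3.35 to 3.79).

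Next came evm.model.1.1139, the long first gene of the run on contig 1, at 2.91 FPKM at 1.5 vvm and 19.7 at 3 vvm, 7.0-fold lower (5.73 to 8.61). The other 2 genes of that run were 3.41-fold (2.01 to 6.07) and 6.60-fold lower (3.23 to 15.2), so that all 3 were lower together. The span of 7579 bp on unitig_0 from 5433139 to 5440717 was at 7.19 FPKM at 1.5 vvm and 36.0 at 3 vvm, 5.35-fold lower (4.75 to 6.03). It had been at 2.23, 8.83, 3.49 and 65.0 FPKM from 6 to 36 h. Of the 8 members with spans of at least 5 kb, 2 were at least 2-fold lower at 1.5 vvm (25%, interval 3.19 to 65.1) and 0 higher (interval 0 to 36.9). These intervals include the shares of all 219 members listed, 9.59% lower and 13.2% higher. The 8 genes are therefore too few to tell whether members with long spans differed from the others.

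The 2 largest differences upwards rested on single fragments. Both evm.model.unitig_23.1 (unitig_23, 10642 to 10878) and evm.model.unitig_0.949 (unitig_0, 3232130 to 3232318) had 1 fragment at 1.5 vvm and 0 at 48 h and 3 vvm, and no fold is given. Among members with many fragments, chosen after their values were seen, the gene on unitig_0 from 4778064 to 4779093 stood out. It was at 1071 FPKM at 1.5 vvm and 138 at 3 vvm, with 5049 and 604 fragments, or 7.60-fold higher (6.99 to 8.29), and thus also above its 299 FPKM at 36 h. The gene on unitig_2 from 3447305 to 3448354 was at 678 FPKM at 1.5 vvm and 145 at 3 vvm, 5.70-fold higher (4.33 to 7.62). The gene on unitig_2 from 114289 to 115501 was at 199 FPKM at 1.5 vvm and 34.9 at 3 vvm, 5.56-fold higher (4.79 to 6.48). Of the 29 higher members 22 were above their own 36 h value at 3 vvm, and 25 had a counting interval above 1. All 21 lower members had one below 1.

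The runs differed among themselves at 1.5 vvm. In the 3 genes on unitig_3 from 4040629, the median was 37.5 FPKM at 1.5 vvm, against 84.2 at 3 vvm, and 1 of them was at least 2-fold lower. In the run with the longest span on unitig_5 the second gene was at 4.09 FPKM at 1.5 vvm and 12.2 at 3 vvm, 3.00-fold lower (1.89 to 4.90). Its other 3 genes were within 2-fold. In the run on unitig_5 from 1505905 the second gene was at 335 FPKM at 1.5 vvm and 91.8 at 3 vvm, 3.59-fold higher (3.33 to 3.88). The genes on both sides of it in that run were 1.37-fold (1.18 to 1.59) and 1.46-fold higher (1.36 to 1.56). Over all 7 runs, 5 of 22 genes were at least 2-fold lower and 1 was at least 2-fold higher. Of all 219 members listed 9.59% were lower and 13.2% higher, and of all genes 2.83% and 22.1%. The run on contig 1 from 4043416 held 3 of the 5 lower genes, so the count rests largely on 1 place.

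The most abundant member, on unitig_4 from 264162, was at 3736 FPKM at 1.5 vvm and 1463 at 3 vvm, 2.96-fold higher (2.79 to 3.15), which placed it between its 12 h and 36 h values. The gene on unitig_2 from 645804 was at 2209 FPKM at 1.5 vvm and 1116 at 3 vvm, 2.08-fold higher (1.99 to 2.17) and close to its 36 h level. The gene on contig 1 from 524742 was at 238 FPKM at 1.5 vvm and 450.0 at 3 vvm, 1.76-fold lower (1.56 to 2.0). These folds are of fragments relative to depth. On the log2(FPKM + 1) scale the differences of these 3 sharp genes were 1.35, 0.98 and -0.91, so that only the first passed 2-fold.

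Across the 219 members, the Pearson correlation of log2(FPKM + 1) of the 1.5 vvm library was 0.689, 0.819, 0.816, 0.893 and 0.851 with the libraries from 6 to 48 h at 3 vvm. These genes are not independent replicates, and each library's depth is shared by all of them. The order of these values is not read, since the choice leaves no member at 0 at 36 h, against 15, 7, 7 and 4 members at 0 at 6, 12, 24 and 48 h. Over the 6670 genes of at least 10 FPKM at 36 h, the values with 24, 36 and 48 h were 0.911, 0.912 and 0.905. Taken gene by gene, the level at 1.5 vvm was closest to 6 h for 2.74% of the members, to 12 h for 16.9%, to 24 h for 22.4%, to 36 h for 28.3% and to 48 h for 29.7%. Over all 9930 genes these shares were 20.8%, 18.5%, 18.6%, 20.8% and 21.4%. The rule asks for a time at least 4-fold below 36 h without naming it. For 191 of the 221 members the lowest time was 6 h, so the small share closest to 6 h follows in part from the choice.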

How the data were processed

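RNA sequencing libraries came from 6 samples, 1 per group, grouped by the age and air supply in the labels. The deposited FPKM values come from the authors, in 2 tables. Cufflinks 2.1.1 and TopHat2 2.0.9 appear in the submitters' processing notes. No build or annotation was stated there. The authors' count columns hold a signal scaled to 1 total per table. Each library's values were multiples of 1 step, which gave whole fragments, within 0.1, for at least 99.9% of values. The tables were joined by locus, and 4 further value columns, which match no label, were not used. Deposited starts were raised by 1, since 46.6% of spans are then multiples of 3.

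Differences are on log2(FPKM + 1), over genes of at least 1 FPKM in either library, with a threshold of 2-fold. The members and lists were chosen with earlier results of these data known. Members named are those with the largest differences at 1.5 vvm (2 each way), the 5 highest at 36 h, the 5 of largest range, the 5 of largest excess at 36 h, and runs of at least 3. Others were picked after their values were seen. The steps were checked on simulated data. Python 3.11.15, numpy 2.4.6, pandas 2.3.3, scipy 1.17.1 and matplotlib 3.10.9 were used.

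Added with the data in view, a model of edgeR 4.0.16 (R 4.3.3) fitted log2 time to the recovered fragments of the 5 libraries at 3 vvm (quasi-likelihood test, TMM, at least 15 fragments in total). At a Benjamini-Hochberg adjusted p under 0.05, 874 of 8987 genes rose and 858 fell. The spread there is the deviation from the fitted line, not between replicates. These libraries chose the members, so their calls are not given.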

Additional observations from a re-analysis of the deposited data

How the results depend on the processing

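The number of genes highest at 36 h was 221, and between 179 and 255 under other minimum levels, a pseudocount of 0.5 FPKM, both rescalings and a minimum of 20 fragments. It was 144 with a pseudocount of 5 FPKM and 103 with a log2 range of at least 3, all of them among the 221. With a median of ratios scaling 179 of the 221 were kept, and with a common sum 205 of 225 were shared. Counting a neighbouring time as shared only within 1.5-fold gave 80 sharp and 46 broad genes, in place of 29 and 108. With a pseudocount of 5 FPKM 9 genes were shared with 24 h in place of 14. With a log2 range of at least 3, 23 of 103 members lay next to another member. The 7 runs of at least 3 members, with 22 genes, came to 3 runs with 9 genes at that range, and to 4 with 12 genes at a pseudocount of 5 FPKM or at least 20 FPKM at 36 h. Under the other settings there were 6 or 7 runs.

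At 1.5 vvm, a common sum of FPKM gave 34 lower members in place of 21 and a median log2 difference of -0.31. It also raised the share of all genes that were lower, from 2.83% to 4.77%. Against the 24 h library at 3 vvm in place of 48 h, 70 members were higher and 2 lower and the median was 0.50, and the cause was not tested. Of all genes, 22.7% were higher than at 24 h and 1.50% lower. With 1.57 FPKM, the median at 1.5 vvm of 442 genes silent at 3 vvm, taken off that library, 27 members were higher and 26 lower. The shares of all genes were then 15.9% and 5.56%. The edgeR counts were 961 and 761 with library totals only, 875 and 860 with RLE, and 870 and 834 with no filter. No paired analysis was possible because each group held 1 library, and none could be left out for the same reason. Settings not named here moved the counts given by no more than 1.5 times. Depth limits the 19 members with under 20 fragments at 36 h.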
